A study of Mus musculus with 1814 samples.

Results

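Dark zone and light zone germinal center B cells of mice were compared 12 h into a time course. Its members were the 170 wells that the labels of 2 sequencing experiments give as Dec positive, 12 h and either dark zone or light zone, out of 677 kept cells of these experiments and 1814 samples of the whole series. The dark zone was represented by 43 cells in experiment 3 and 55 cells in experiment 4, and the light zone by 46 and 26 cells. A further 2 kept cells of 12 h had no zone in the labels and were left out. No well name was shared between samples (0 shared).

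Germinal centers are the sites in lymphoid organs where activated B cells mutate their antigen receptors and are selected. In the dark zone, cells marked by the chemokine receptor CXCR4 divide and carry out somatic hypermutation. In the light zone, cells marked by CD83 and CD86 take up antigen, present it to helper T cells, and receive signals that include CD40 and NF-kB and that induce MYC in selected cells. Dec refers to the label Dec_Positive. The labels do not state how it was defined or from which event the hours were counted, and they give the genotype as NA. The source was the germinal center, and the protocol names lymph nodes. Strain and age are not given in the labels used here. Dark and light zone cells of an experiment shared all of this and were sorted onto the same 4 plates, and the labels name no animal. The experiment was therefore taken as the replicate (n = 2), and whether plates or cells of 1 experiment came from 1 animal or several is not stated. A count of a Y-linked gene (Ddx3y, Eif2s3y, Kdm5d or Uty) was present in 0 of 43 and 5 of 55 dark zone cells of experiments 3 and 4, against 0 of 46 and 2 of 26 light zone cells. Xist, the RNA that silences an X chromosome in female cells, had 129.4 and 199.3 CPM in dark zone cells, against 262.5 and 516.8 CPM in light zone cells (log2 ratio -1.20 ± 0.32, SE, DESeq2 adjusted p = 0.0987), and 0 cells held both kinds of count. The part of the animals' sex in the zone ratios was not tested.

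Full-length RNA libraries without molecular identifiers gave expected counts per gene and well, which were summed over the cells of each zone and experiment and scaled to CPM, a level relative to the total count of the sum. The dark zone sums held 8757306 reads in experiment 3 and 18467704 reads in experiment 4, and the light zone sums held 11030234 and 8887920 reads. The median number of genes per cell was 2257 and 2365 in dark zone cells, against 2843 and 2369 in light zone cells. Both zones carried all 8 B cell markers and all 8 germinal center markers of the lists used, with no member at 0 in any of the 4 sums. All 7 NK cell markers were at 0. Of 14 T cell markers, 12 and 12 had no count in dark zone cells and 9 and 11 had none in light zone cells. The T cell receptor complex genes Cd3d, Cd3e and Cd3g were at 0 in all 4 sums, and most of the summed level of this list came from Lck and Cd2.

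The zone labels went with the index-sort intensities, in arbitrary units. Median CD83 staining was 280 and 140 in dark zone cells of experiments 3 and 4, against 4732 and 4856 in light zone cells. The median ratio of CXCR4 to CD83 staining was 1.48 and 5.87 in dark zone cells, against 0.04 and 0.045 in light zone cells. That ratio was at least 0.30 in each dark zone cell with both values and at most 0.21 in each such light zone cell, so RNA of these genes is no independent evidence of the zones. Cd83 RNA, which encodes an activation marker of the immunoglobulin superfamily, reached 950 and 2161 CPM in dark zone cells, against 3342 and 3561 CPM in light zone cells. Cxcr4 RNA was scarce, at 16.4 and 66.01 CPM in dark zone cells, against 1.09 and 58.3 CPM in light zone cells. Cd83 RNA was thus lower in dark zone cells of both experiments (log2 ratio -1.27 ± 0.46, SE, DESeq2 adjusted p = 0.555). Its log2 ratio was -1.81 in experiment 3 and -0.72 in experiment 4. Cxcr4 RNA differed widely in experiment 3 and little in experiment 4. The deposited annotation marked 4 of 43 and 14 of 55 dark zone cells for both zones, and 0 of 46 and 0 of 26 light zone cells.

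The comparison asked which transcripts set the zones apart within a harvest. No gene passed the quasi-likelihood test of edgeR at an adjusted p of 0.05 (0 of 11029 tested, lowest adjusted p = 0.836). At an unadjusted p under 0.05, 391 genes differed, with 1.78% of all genes tested above and 1.77% below the light zone level. DESeq2 on the same sums called 63 genes higher (0.571%) and 53 lower (0.481%). Of all these calls, 40 had a mean of 100 CPM or more at 12 h, and 110 kept 1 sign across the experiments. The calls were made from these same experiments, so that agreement in sign is no independent evidence. Without the harvest block DESeq2 called 55 genes, 40 of them also called with it, and of 31 genes named here that passed with the block, 3 passed without it, namely Gcsam, Mybl2 and Selenop. On simulated data of the same size DESeq2 called many more unchanged genes than edgeR did, a number of the same order as its calls here, so passing in DESeq2 is weak evidence and its adjusted p values are likely too small. The genes below are therefore given with their values in each experiment as descriptions, and a gene said to pass did so in DESeq2 with the block. As background, 24.7% of genes tested were higher in the dark zone in both experiments and 23.9% were lower, 4.77% were at least 2-fold higher and 4.1% at least 2-fold lower in both (1.39% and 1.2% with a pseudocount of 10 CPM in place of 1), and in 14.7% and 13.1% both dark zone sums lay above or below both light zone sums. Across the 8 plates, 0.707% of genes were above the light zone level in every plate and 0.354% were below it in every plate. A plate held only 7 to 19 dark zone and 3 to 14 light zone cells of 12 h. The plates split the same 2 experiments and are not further replicates. Over 2064 genes at 100 CPM or more, the log2 ratios of the 2 experiments were correlated across genes at Pearson's r = 0.30 and Spearman's rho = 0.30, and genes are not independent replicates.

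Genes known from the dark zone were higher in the dark zone cells. Of 17 tested members of this list other than Cxcr4, whose protein was sorted, 12 were higher in both experiments, 2 were lower in both, and 8 were at least 2-fold higher in both (7 with a pseudocount of 10 CPM). Their median log2 ratio was 1.23, against 0.00 over all genes tested, and 7 passed in DESeq2. The list was drawn up with earlier results of these data known, so its direction is not independent evidence. Hmces, which shields abasic sites in single-stranded DNA, had 870 and 811 CPM in dark zone cells, against 175.5 and 338.7 CPM in light zone cells (log2 ratio 1.78 ± 0.31, SE, DESeq2 adjusted p = 1.27e-05). Both dark zone values lay above both light zone values, as in 14.7% of all genes tested, and Hmces was higher in 7 of 8 plates. Hmces (mm10 chromosome 6, 87913935 to 87936629) was counted in 81.4% and 78.2% of dark zone cells and in 28.3% and 42.3% of light zone cells. In sums of cells, fewer cells with a transcript and less transcript per cell cannot be told apart.

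**Figure D1:**
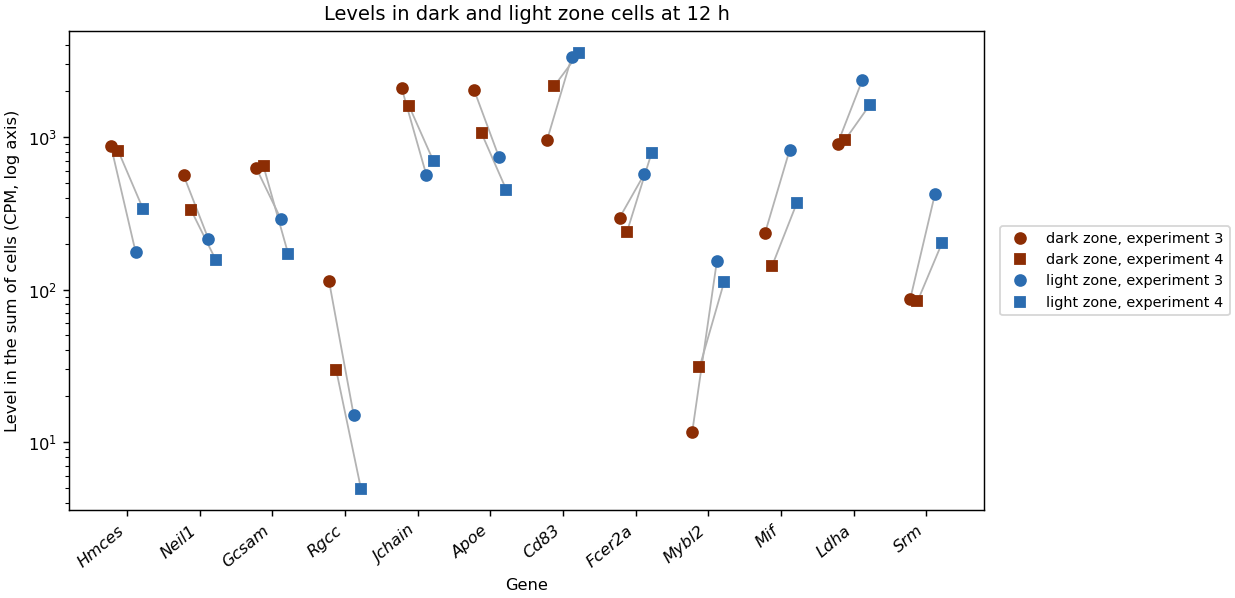
Level in CPM (log axis) of 12 genes in the sums of dark zone (brown) and light zone (blue) cells at 12 h, with circles for experiment 3 and squares for experiment 4, and lines joining the zones of an experiment. For the 6 genes on the left the dark zone value is the higher one in each experiment, as for Hmces with 870 and 811 CPM against 175.5 and 338.7 CPM, and for the 6 on the right the light zone value is.

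Gcsam, a germinal center adaptor that restrains migration, had 625 and 642 CPM in dark zone cells, against 289.2 and 170.8 CPM in light zone cells (log2 ratio 1.51 ± 0.29, SE, DESeq2 adjusted p = 0.000303), and was higher in 8 of 8 plates. Neil1, a DNA glycosylase of base excision repair, had 561 and 333.8 CPM in dark zone cells, against 215.1 and 157.3 CPM in light zone cells. Rgcc, a regulator of the cell cycle, was low and variable in both zones, at 114.2 and 29.6 CPM in dark zone cells, against 15.1 and 4.95 CPM in light zone cells. Its groups did not overlap, with both dark zone sums above both light zone sums, as in 14.7% of all genes tested. A count was present in 25.6% and 20% of dark zone cells and in 4.35% and 3.85% of light zone cells. S1pr2, a receptor that keeps B cells inside the follicle, had 1153 and 775 CPM in dark zone cells, against 480 and 492 CPM in light zone cells (log2 ratio 0.96 ± 0.24, SE, DESeq2 adjusted p = 0.0247). Anxa2, an annexin of the cell membrane named after its value was seen, had 1578 and 809 CPM in dark zone cells, against 248.3 and 384 CPM in light zone cells. Foxo1, a transcription factor needed for the dark zone program, showed no such separation, with 68.9 and 47.2 CPM in dark zone cells, against 67.5 and 70.3 CPM in light zone cells. Hmces and Neil1 were among the higher members of their repair list. Of 29 tested members of hypermutation and repair, 11 were higher and 6 lower in both experiments, with a median log2 ratio of 0.08. In all, 4 members were at least 2-fold higher in both experiments, and 3 passed in DESeq2 as higher.

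Outside that list, genes were ranked at a mean of 100 CPM or more and a count in at least 20% of a zone's cells. Among these, the genes with the widest margin in both experiments included enzymes and trafficking factors. Blvrb, a biliverdin reductase, had 422 and 237.1 CPM in dark zone cells, against 132.3 and 69.3 CPM in light zone cells (log2 ratio 1.72 ± 0.35, SE, DESeq2 adjusted p = 0.00124), and was higher in 8 of 8 plates. Pafah1b3, a subunit of a platelet-activating factor acetylhydrolase, had 323.3 and 128.8 CPM in dark zone cells, against 45.1 and 30.3 CPM in light zone cells. Gga2, a clathrin adaptor of the trans-Golgi, had 434 and 292.02 CPM in dark zone cells, against 176.96 and 97.2 CPM in light zone cells, and it too was higher in every plate. Odf2, a centriole protein, had 163.9 and 184.5 CPM in dark zone cells, against 64.1 and 67.1 CPM in light zone cells. Reep5, which shapes the endoplasmic reticulum, and Abi3, an adaptor of actin regulation, had log2 ratios of 1.33 ± 0.41 and 1.24 ± 0.52 (SE). Odf2, Reep5 and Abi3 did not pass in DESeq2, while Blvrb, Pafah1b3 and Gga2 did.

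Apoe, the lipid carrier apolipoprotein E, had 2023 and 1061 CPM in dark zone cells, against 739 and 453 CPM in light zone cells (log2 ratio 1.34 ± 0.29, SE, DESeq2 adjusted p = 0.00062). It was present in 88.4% and 81.8% of dark zone cells and in 58.7% and 57.7% of light zone cells. Apoe is also a macrophage transcript. The 14 myeloid markers summed to 560 and 184.1 CPM in dark zone cells, against 193.1 and 99.8 CPM in light zone cells, with 10 and 10 of them at 0 in the dark zone and 11 and 13 in the light zone. Nearly all of that sum was Cst3, a secreted protease inhibitor, with 533 and 174.03 CPM in dark zone cells, against 187.9 and 99.8 CPM in light zone cells. Cd68, a lysosomal protein of macrophages on that list, had 23.8 and 8.50 CPM in dark zone cells, against 3.99 and 0 CPM in light zone cells. Few cells held a count of Cd68, at 6.98% and 1.82% of dark zone cells and 2.17% and 0% of light zone cells. Selenop, a selenium carrier that macrophages also make, is not on the list and was named after its values were seen. It had 83.6 and 362.8 CPM in dark zone cells, against 17.2 and 9.001 CPM in light zone cells (log2 ratio 3.79 ± 0.93, SE, DESeq2 adjusted p = 0.000229), with a count in 18.6% and 29.1% of dark zone cells and in 10.9% and 7.69% of light zone cells. Selenop was higher in 6 of 8 plates, and its log2 ratio was 5.34 without experiment 3 and 2.31 without experiment 4. Of other macrophage markers, Csf1r had 0.289 and 0 CPM in dark zone cells, against 1.20 and 0 CPM in light zone cells. Lyz2, C1qa, C1qb and C1qc were at 0 in all 4 sums. The part of macrophage RNA in the Apoe ratio was not tested.

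Transcripts of the antigen receptor and its assembly were partly higher in the dark zone. Jchain, which joins secreted IgM and IgA, had 2104 and 1609 CPM in dark zone cells, against 565 and 693 CPM in light zone cells (log2 ratio 1.56 ± 0.30, SE, DESeq2 adjusted p = 4.53e-05). It was higher in 8 of 8 plates and was found in 97.7% and 89.1% of dark zone cells, against 76.1% and 53.8% of light zone cells. Of 13 tested plasma cell genes, 4 were higher and 2 lower in both experiments, and Jchain alone passed. Sdc1 and Prdm1, which define plasma cells, had 14.2 CPM and 5.48 CPM, in that order, in dark zone cells of experiment 3 and were at 0 in the other 3 sums. Mzb1, a chaperone of immunoglobulin assembly, had 623 and 307.5 CPM in dark zone cells, against 316.04 and 203.9 CPM in light zone cells. Igkc, the kappa light chain constant gene, had 1269 and 561 CPM in dark zone cells, against 580 and 206.5 CPM in light zone cells, with log2 ratio 1.29 ± 0.41 (SE, DESeq2 adjusted p = 0.0347). Ighm, the constant gene of IgM, had 3293 and 2547 CPM in dark zone cells, against 53.2 and 1020.3 CPM in light zone cells. A count of Ighm was present in 6.98% and 58.2% of dark zone cells and in 4.35% and 34.6% of light zone cells, so few cells carried its level in experiment 3. The immunoglobulin constant genes had a median log2 ratio of 1.13 over 12 members, 5 of them higher and 1 lower in both experiments. Reads of the more similar members of that list, such as the lambda constant genes Iglc1, Iglc2 and Iglc3, can be split between copies.

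The signalling subunits followed at smaller ratios. Cd79b, a receptor signalling chain, had 3457 and 2179 CPM in dark zone cells, against 1685 and 1680 CPM in light zone cells. Its partner Cd79a had 1432 and 994 CPM in dark zone cells, against 1124 and 863 CPM in light zone cells, and was higher in 8 of 8 plates. Btk, the kinase below the receptor, had 428 and 452 CPM in dark zone cells, against 175.2 and 170 CPM in light zone cells, but with an SE of 0.81 on a log2 ratio of 1.35. Cd81, a tetraspanin of the cell surface, had 647 and 528 CPM in dark zone cells, against 300.5 and 413 CPM in light zone cells. Of 20 receptor and coreceptor genes, 11 were higher and 4 lower in both experiments, at a median log2 ratio of 0.32. None passed in either tool, where over all genes tested DESeq2 called 0.571% higher and 0.481% lower and edgeR called 0.

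Among 29 transcription factors of germinal center B cells, 14 were higher and 6 lower in both experiments, with a median log2 ratio of 0.21. Id3, an inhibitor of E proteins, had 310 and 188.5 CPM in dark zone cells, against 123.8 and 81.8 CPM in light zone cells (log2 ratio 1.26 ± 0.29, SE, DESeq2 adjusted p = 0.0295), and was higher in 8 of 8 plates. Spib, an ETS factor, had 704 and 540 CPM in dark zone cells, against 308.5 and 419 CPM in light zone cells, also higher in every plate. Bach2, a repressor that holds back plasma cell fate, had 158.95 and 201.3 CPM in dark zone cells, against 97.5 and 96.2 CPM in light zone cells. Xbp1, which drives secretory capacity, differed mainly in experiment 3, at 721 and 401 CPM in dark zone cells, against 214.8 and 304.1 CPM in light zone cells. Bcl6, the repressor that defines the germinal center state, had 420 and 171.7 CPM in dark zone cells, against 270.8 and 131.9 CPM in light zone cells, so that its zones overlapped across experiments. Only Id3 and Mybl2 of this list passed in DESeq2.

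**Figure D2:**
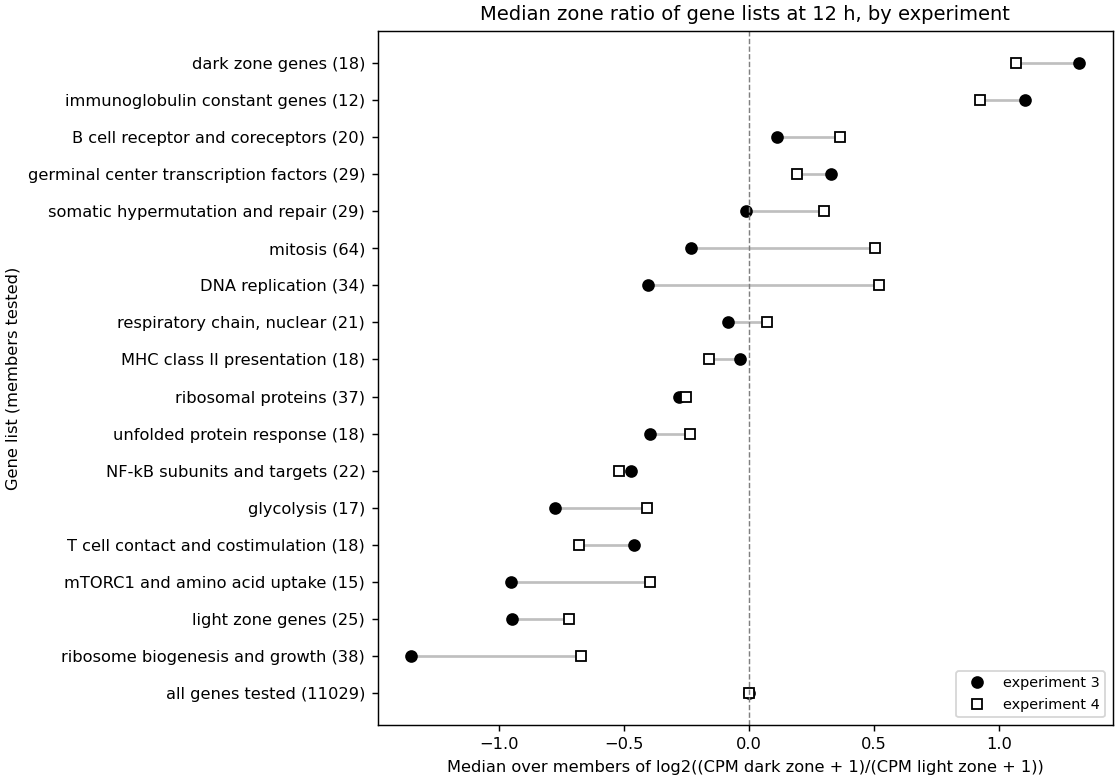
Median log2 ratio of dark over light zone at 12 h (pseudocount 1 CPM) over the tested members of 17 gene lists and over all genes tested, with filled circles for experiment 3, open squares for experiment 4 and the number of members in brackets. Dark zone genes, here with Cxcr4, lie at 1.32 and 1.07 and ribosome biogenesis genes at -1.35 and -0.67, while mitosis and DNA replication genes lie on opposite sides of 0 in the 2 experiments.

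Light zone genes were lower in the dark zone cells. Of 24 tested members other than Cd83, whose protein was sorted, 18 were lower in both experiments and 0 were higher in both, with a median log2 ratio of -0.999, and 5 were at least 2-fold lower in both (2 with a pseudocount of 10 CPM). This list too was drawn up with earlier results of these data known. Fcer2a, the low-affinity IgE receptor CD23, had 295.8 and 237.8 CPM in dark zone cells, against 572 and 785 CPM in light zone cells (log2 ratio -1.34 ± 0.36, SE, DESeq2 adjusted p = 0.0328). A count was found in 44.2% and 47.3% of dark zone cells and in 91.3% and 84.6% of light zone cells. Gimap4, a GTPase of lymphocyte survival, had 116.6 and 94.4 CPM in dark zone cells, against 313.6 and 373 CPM in light zone cells (log2 ratio -1.70 ± 0.33, SE, DESeq2 adjusted p = 0.00325). Of 8 GIMAP family members 5 were lower and 0 higher in both experiments. Ifi30, a thiol reductase of antigen processing, had 180.99 and 128.8 CPM in dark zone cells, against 424 and 187.9 CPM in light zone cells, and was lower in the dark zone in 8 of 8 plates. Il4i1, an amino acid oxidase, differed in experiment 3 alone, with 95.3 and 260 CPM in dark zone cells, against 553 and 243.4 CPM in light zone cells.

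Receptors and ligands of the contact with T cells leaned the same way without passing. Of 18 tested members 12 were lower and 1 was higher in both experiments, at a median log2 ratio of -0.70. Cd40, the receptor for T cell help, had 97.9 and 137.6 CPM in dark zone cells, against 356 and 217.5 CPM in light zone cells. Cd86, a costimulatory ligand, had 177.8 and 174.1 CPM in dark zone cells, against 333.99 and 429 CPM in light zone cells. Il21r, the receptor for a helper cytokine, had 440 and 303.6 CPM in dark zone cells, against 627 and 605 CPM in light zone cells. For these 3 genes both dark zone values lay below both light zone values, as in 13.1% of all genes tested. They are genes of the fixed set or members with the smallest p, so this is a description only. Slamf6, the 1 member higher in both, had 274.9 and 237.2 CPM in dark zone cells, against 90.5 and 218.7 CPM in light zone cells. Ly75, which encodes the endocytic receptor DEC205, pointed in opposite directions in the 2 experiments, with 12.9 and 60.1 CPM in dark zone cells, against 82.4 and 37.5 CPM in light zone cells.

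Members of the NF-kB pathway differed among themselves. Of 22 tested, 12 were lower and 4 higher in both experiments, with a median log2 ratio of -0.46. Nfkbia, the inhibitor IkB-alpha and a feedback target of the pathway, had 242.1 and 288.02 CPM in dark zone cells, against 610 and 460 CPM in light zone cells (log2 ratio -1.003 ± 0.32, SE). Nfkb2, a subunit of the alternative pathway, had 72.02 and 98.8 CPM in dark zone cells, against 197.1 and 242.1 CPM in light zone cells. Nfkb1, the p50 precursor of the classical pathway, went the other way, with 136.9 and 78.1 CPM in dark zone cells, against 48.7 and 19.5 CPM in light zone cells. Ncf1, a subunit of the phagocyte oxidase outside the list, had 57.4 and 57.2 CPM in dark zone cells, against 152.4 and 168.4 CPM in light zone cells. The survival gene Bcl2a1b, one of several near-identical copies between which reads can be split, had 34.9 and 106.1 CPM in dark zone cells, against 132.96 and 198.5 CPM in light zone cells. The NF-kB motif GGGANTTTCC, searched on both strands, occurred in the 250 bases before the start in 0.356% of 32851 RefSeq promoters (GRCm38.p6), in 2 of 27 promoters of this list, in 2 of 25 of the light zone genes and in 0 of 27 of the dark zone genes. The Nfkbia promoter (chr12:55492648-55492897, minus strand) is shown because this target follows the list. It holds 1 match, in capitals, that ends 19 bases before the start and reads on the opposite strand.
Nfkbia: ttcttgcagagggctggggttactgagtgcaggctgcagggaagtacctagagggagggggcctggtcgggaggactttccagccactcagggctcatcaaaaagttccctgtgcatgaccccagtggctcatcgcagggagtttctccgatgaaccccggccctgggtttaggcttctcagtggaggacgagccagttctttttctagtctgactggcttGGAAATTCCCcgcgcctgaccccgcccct

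Growth genes were mostly lower in the dark zone cells. Of 38 tested genes of ribosome biogenesis and growth, 31 were lower in the dark zone in both experiments and 0 were higher in both. Their median log2 ratio was -1.10, at -1.35 in experiment 3 and -0.67 in experiment 4, and 6 members passed in DESeq2. Srm, the spermidine synthase, had 86.4 and 83.7 CPM in dark zone cells, against 422 and 203.2 CPM in light zone cells (log2 ratio -1.78 ± 0.44, SE, DESeq2 adjusted p = 0.0154). C1qbp, a mitochondrial matrix protein needed for translation there, had 233.98 and 260.7 CPM in dark zone cells, against 751 and 543 CPM in light zone cells. Npm1, a nucleolar chaperone named after its value was seen, had 1327 and 2243 CPM in dark zone cells, against 3358 and 3519 CPM in light zone cells. None of these overlapped between zones, with both dark zone sums below both light zone sums, as in 13.1% of all genes tested. They were picked by a small p or after their value was seen, so this is a description only.

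Further members and neighbours of this group kept the same order. Hspd1 and Hspe1 encode the mitochondrial chaperonin and its cofactor. Hspd1 had 186.4 and 357 CPM in dark zone cells, against 548 and 632 CPM in light zone cells, and Hspe1 had 63.5 and 67.6 CPM, against 164.6 and 232.5 CPM. Hspe1 was lower in the dark zone in 8 of 8 plates. It also belongs to a list of 10 heat shock genes that dissociation of tissue can induce, of which 8 were tested, 4 were lower and 0 higher in both experiments, at a median log2 ratio of -0.35. These 10 genes summed to 5094 and 6158 CPM in dark zone cells, against 7165 and 6484 CPM in light zone cells. Hsp90aa1, a cytosolic chaperone of that list, had 185.9 and 403 CPM in dark zone cells, against 522 and 508 CPM in light zone cells. The part of such stress in the growth gene ratios was not tested. Nop16, a nucleolar protein, had 68.3 and 72.02 CPM in dark zone cells, against 168.2 and 231.3 CPM in light zone cells. Ddx18, a nucleolar RNA helicase, had 31.04 and 48.01 CPM in dark zone cells, against 151.7 and 185.4 CPM in light zone cells, and was also lower in every plate. Wdr77, a partner of the methyltransferase PRMT5, had 53.97 and 86.2 CPM in dark zone cells, against 202.8 and 241.4 CPM in light zone cells, again lower in all 8 plates. The purine enzymes Gart and Aprt had log2 ratios of -1.54 ± 0.41 and -1.48 ± 0.47 (SE). Mif, a cytokine with tautomerase activity, had 233.2 and 143.3 CPM in dark zone cells, against 820 and 370 CPM in light zone cells (log2 ratio -1.59 ± 0.30, SE, DESeq2 adjusted p = 0.000412).

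Myc, the transcription factor that drives growth of selected light zone cells, was found in a minority of the cells of either zone. It had 34.5 and 114.6 CPM in dark zone cells, against 223.9 and 167.9 CPM in light zone cells, with a count in 13.95% and 16.4% of dark zone cells and in 36.96% and 30.8% of light zone cells. Its log2 ratio was -2.66 in experiment 3 and -0.55 in experiment 4, and the fitted ratio of -1.62 ± 0.69 (SE) did not pass in either tool. The ribosomal proteins themselves differed little but in 1 direction. Of 37 members 28 were lower and 0 higher in both experiments, at a median log2 ratio of -0.22. Rps2 had 2496 and 1515 CPM in dark zone cells, against 4170 and 2220 CPM in light zone cells. Rplp2 had 350 and 190.9 CPM in dark zone cells, against 618 and 301.2 CPM in light zone cells, and was lower in 8 of 8 plates.

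Metabolic genes were lower in part. Of 15 members tested of the mTORC1 and amino acid uptake list, 6 were lower and 1 higher in both experiments, with a median log2 ratio of -0.93. Phgdh, the first enzyme of serine synthesis, had 283.1 and 283.7 CPM in dark zone cells, against 585 and 723 CPM in light zone cells (log2 ratio -1.20 ± 0.24, SE, DESeq2 adjusted p = 0.0026). Psat1, the next enzyme of that pathway, had 100.9 and 177.1 CPM in dark zone cells, against 196.01 and 329.2 CPM in light zone cells. Slc3a2, the heavy chain of amino acid transporters, had 117.05 and 117.39 CPM in dark zone cells, against 247.9 and 210 CPM in light zone cells. The transferrin receptor Tfrc had 11.5 and 67.5 CPM in dark zone cells, against 54.5 and 227.2 CPM in light zone cells. Of 17 glycolysis genes 9 were lower and 0 higher in both experiments, at a median log2 ratio of -0.48. Ldha, the lactate dehydrogenase subunit, had 905 and 954 CPM in dark zone cells, against 2359 and 1618 CPM in light zone cells (log2 ratio -1.07 ± 0.23, SE, DESeq2 adjusted p = 0.00062). Tpi1, Aldoa and Eno1, further enzymes of the pathway, had log2 ratios of -0.85 ± 0.22, -0.73 ± 0.22 and -0.71 ± 0.24 (SE).

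The E-box CACGTG, which MYC and related factors can bind, reads the same on both strands. It occurred in the 250 bases before the start in 6.02% of 32851 RefSeq promoters, in 5 of 36 promoters of the ribosome biogenesis and growth genes, in 2 of 23 of the glycolysis genes, in 0 of 16 of the mTORC1 and amino acid uptake genes, and in 0 of 27 of the dark zone genes. The Ldha promoter (chr7:46845554-46845803, GRCm38.p6, plus strand) is shown as that of the glycolysis gene with the smallest p. It holds 2 matches, in capitals, the nearer of which ends 42 bases before the start. A match is a description of these letters and not of binding.
Ldha: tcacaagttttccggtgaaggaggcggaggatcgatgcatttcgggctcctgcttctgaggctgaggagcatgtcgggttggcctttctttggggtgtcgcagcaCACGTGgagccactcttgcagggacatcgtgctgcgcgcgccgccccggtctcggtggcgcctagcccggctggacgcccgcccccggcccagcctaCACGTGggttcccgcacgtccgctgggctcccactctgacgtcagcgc

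**Figure D3:**
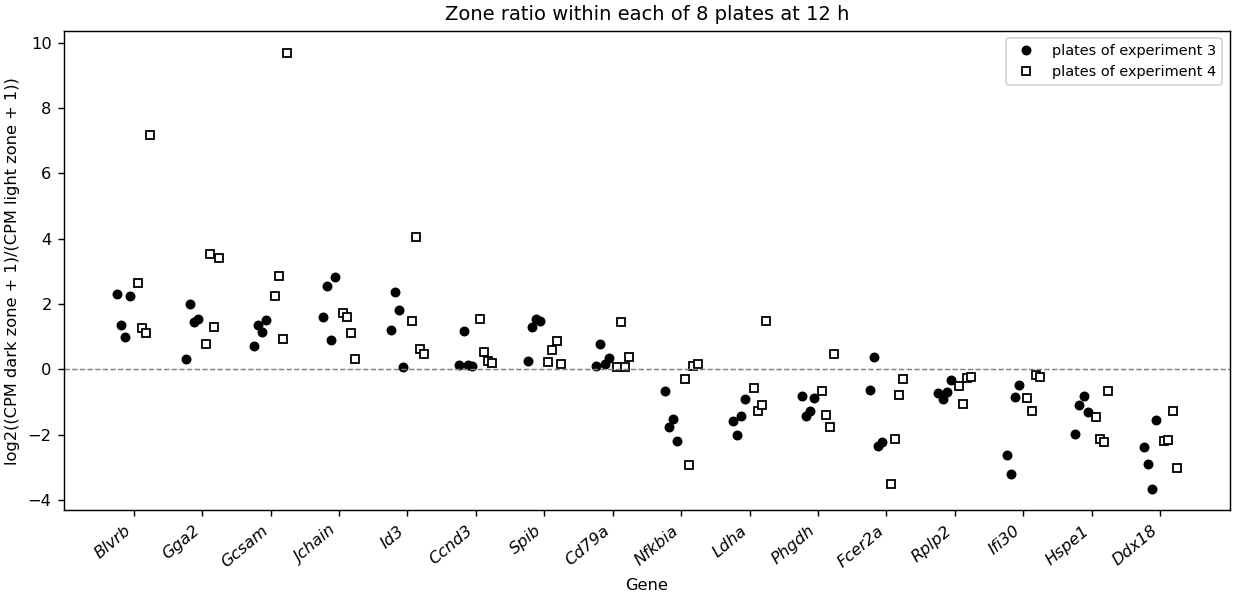
Log2 ratio of dark over light zone (pseudocount 1 CPM) within each of the 8 plates for 16 genes, with filled circles for the 4 plates of experiment 3 and open squares for the 4 plates of experiment 4. Blvrb, Gga2, Gcsam, Jchain, Id3, Ccnd3, Spib and Cd79a lie above 0 in 8 of 8 plates, and Rplp2, Ifi30, Hspe1 and Ddx18 lie below 0 in all of them. A plate held 7 to 19 dark zone and 3 to 14 light zone cells.

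The shares of cells in G1 and S leaned in opposite ways in the 2 experiments, and that in G2M the same way. By the authors' annotation, 60.5% of dark zone cells (exact binomial interval 44.4% to 75.02%) and 45.7% of light zone cells (30.9% to 60.99%) were in G1 in experiment 3. In experiment 4, 41.8% of dark zone cells (28.7% to 55.9%) and 57.7% of light zone cells (36.9% to 76.6%) were. The share in S was 25.6% in dark zone and 41.3% in light zone cells in experiment 3, and 29.1% and 26.9% in experiment 4. The share in G2M was 13.95% in dark zone and 13.04% in light zone cells in experiment 3, and 29.1% and 15.4% in experiment 4. All these intervals are at 95% and cover counting error only. The intervals of the zones overlapped for each phase in each experiment.

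**Figure D4:**
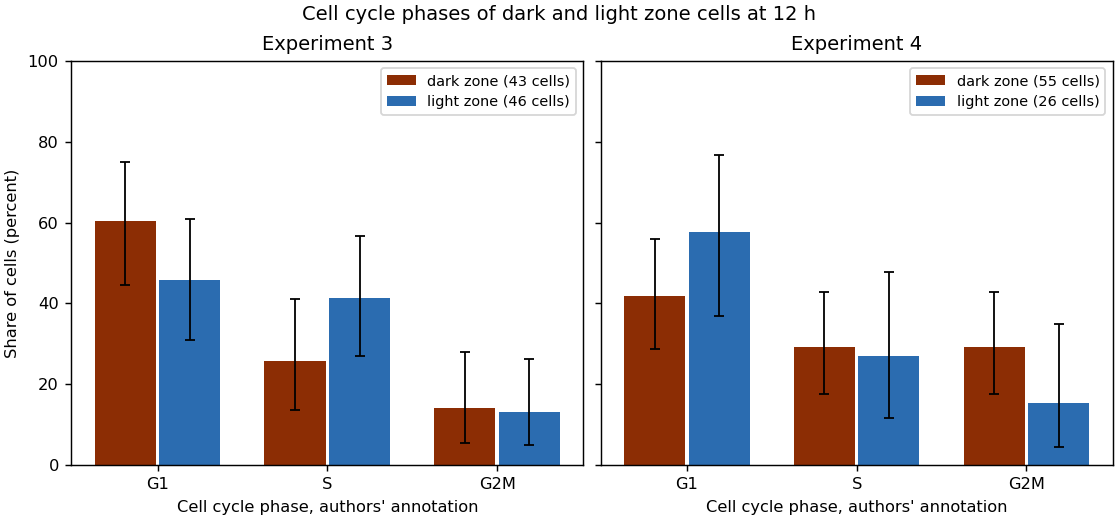
Share of dark zone (brown) and light zone (blue) cells at 12 h in each cell cycle phase of the authors' annotation, with exact 95% binomial intervals as error bars, in experiment 3 (left) and experiment 4 (right). The dark zone share in G1 is 60.5% against 45.7% in experiment 3, and 41.8% against 57.7% in experiment 4.

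Cell cycle genes as groups also pointed in opposite ways. The median log2 ratio of 64 mitosis genes was -0.23 in experiment 3 and 0.50 in experiment 4, and that of 34 DNA replication genes was -0.40 and 0.52. Mki67, a proliferation marker, had 203.2 and 585 CPM in dark zone cells, against 220 and 262.8 CPM in light zone cells. Of the 64 mitosis genes, 15 were higher and 9 lower in both experiments, and of the 34 DNA replication genes 10 and 5. Over all genes tested these shares were 24.7% and 23.9%, so neither mitosis count exceeded the background. The mitosis genes given next are those with the smallest p. Cdc25b, a phosphatase that starts mitosis, had 457 and 240 CPM in dark zone cells, against 74.3 and 134.3 CPM in light zone cells (log2 ratio 1.73 ± 0.42, SE, DESeq2 adjusted p = 0.00773). Cdc20, an activator of the anaphase-promoting complex, had 230 and 322.5 CPM in dark zone cells, against 62.6 and 206.01 CPM in light zone cells. Cenpe and Ncapd2, which act in chromosome alignment and condensation, had log2 ratios of 1.14 ± 0.39 and 1.09 ± 0.37 (SE). Pcna, the clamp of the replication fork, had 260 and 272.97 CPM in dark zone cells, against 495 and 324.4 CPM in light zone cells.

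Regulators of entry into the cycle split between zones. Ccnd3, cyclin D3, had 716 and 653 CPM in dark zone cells, against 551 and 404 CPM in light zone cells (log2 ratio 0.54 ± 0.25, SE), and was higher in 8 of 8 plates without passing in either tool. Ccnd2, cyclin D2, had 3.54 and 73.6 CPM in dark zone cells, against 94.7 and 78.2 CPM in light zone cells, a difference carried by experiment 3. Cdk4, the kinase partner of D cyclins, had 346 and 353 CPM in dark zone cells, against 634 and 451 CPM in light zone cells. Mybl2, a transcription factor of S phase and mitosis genes, had 11.6 and 30.8 CPM in dark zone cells, against 154.8 and 112.8 CPM in light zone cells (log2 ratio -2.79 ± 0.63, SE, DESeq2 adjusted p = 0.0016). E2f1, an activator of S phase genes, was scarce, with 4.11 and 1.68 CPM in dark zone cells, against 27.5 and 32.97 CPM in light zone cells. Tyms, the thymidylate synthase, had 93.8 and 188.4 CPM in dark zone cells, against 257.4 and 190 CPM in light zone cells.

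With G1 phase cells alone, 26 and 23 in the dark zone and 21 and 15 in the light zone, the median log2 ratio was 0.72 for dark zone genes without Cxcr4, -0.71 for light zone genes without Cd83, and -0.74 for each of the ribosome biogenesis and growth and the mTORC1 lists. Within these cells Hmces had a log2 ratio of 0.93, Srm -1.65, Ldha -0.86 and Mif -1.38. These values kept the direction of all cells at a smaller size. Others were larger in G1 cells, as for Gga2 with a log2 ratio of 2.10 in G1 and 1.44 over all cells, Odf2 with 3.75 and 1.41, Phgdh with -1.50 and -1.20, Psat1 with -1.54 and -0.93, and Ddx18 with -2.33 and -2.12. Of 92 named genes with both values, 60 kept their sign at a smaller size in G1 cells, 29 kept it at a larger size and 3 had the opposite sign.

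The zone effect at 12 h was set against the mean zone effect at 30, 46 and 60 h of the same experiments, in which 60 h rests on experiment 3 alone. No gene passed in edgeR (0 of 11029, 2.76% at an unadjusted p under 0.05), and DESeq2 called 54 (0.49%), of which 4 had a mean of 100 CPM or more at 12 h. These 4 were Jchain, Apoe, Ltb and H2afx, the last pair named after their values were seen. Without the block DESeq2 called 16 higher and 40 lower, and none of the 4 passed, with adjusted p from 0.695 to 0.94. Jchain had a log2 ratio of 1.56 at 12 h and 0.29 later, a difference of 1.26 ± 0.36 (SE, DESeq2 adjusted p = 0.0225). Apoe had 1.34 at 12 h and 0.15 later, a difference of 1.19 ± 0.34 (SE, DESeq2 adjusted p = 0.0396). Ltb, the membrane anchor of lymphotoxin, had 1.04 at 12 h and -0.37 later, and H2afx, a histone variant that marks DNA breaks when phosphorylated, had 1.13 and -0.03. Irf4, a factor of plasma cell fate, passed for this difference at low levels with the block (DESeq2 adjusted p = 0.026, against 0.08 without it). It had a log2 ratio of 0.93 at 12 h and -3.87 later, a difference of 4.79 ± 1.56 (SE). Its zone ratio at 12 h did not pass (DESeq2 adjusted p = 0.90). At 12 h Irf4 had 39.3 and 52.7 CPM in dark zone cells, against 22.6 and 25.4 CPM in light zone cells. A count was present in 2.33% and 9.09% of dark zone and 15.2% and 19.2% of light zone cells.

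**Figure D5:**
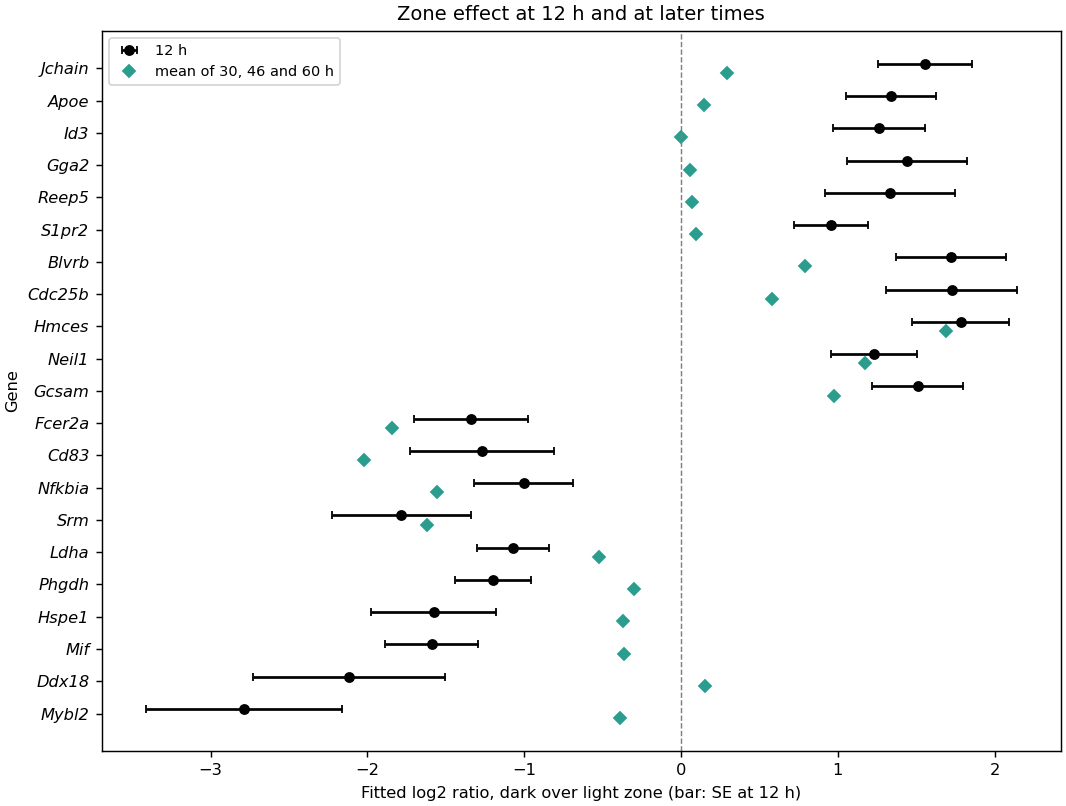
Fitted log2 ratio of dark over light zone for 21 genes at 12 h (black circles, bars show the SE) and the mean of the fitted ratios at 30, 46 and 60 h (green diamonds). Jchain lies at 1.56 and 0.29, Hmces at 1.78 and 1.69, and Mif at -1.59 and -0.36.

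Other genes had similar or different ratios at the later times without passing. Hmces, with 1.78 at 12 h and 1.69 later, and Neil1, with 1.23 and 1.18, differed by 0.10 ± 0.36 and 0.06 ± 0.33 (SE). Id3 had 1.26 at 12 h and 0.00 later, S1pr2 0.96 and 0.10, and Gga2 1.44 and 0.06. Mif had -1.59 at 12 h and -0.36 later, Ddx18 -2.12 and 0.16, and Mybl2 -2.79 and -0.39, while Srm had -1.78 and -1.62. Cd83 had -1.27 at 12 h and -2.02 later. The median of ribosome biogenesis and growth genes was -1.10 at 12 h and -0.51 later, and that of dark zone genes without Cxcr4 1.23 and 1.08. Over all genes tested the median was 0.00 at 12 h and 0.37 later, and over genes at 100 CPM or more -0.01 and 0.06. The later light zone sums held 11 to 22 cells, fewer than the 46 and 26 of 12 h.

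Several groups showed small or mixed ratios. MHC class II presentation genes had a median log2 ratio of -0.15 over 18 members, 9 lower and 4 higher in both experiments. H2-Eb1, a class II beta chain, had 3775 and 2271 CPM in dark zone cells, against 4383 and 2621 CPM in light zone cells, whereas the lysosomal protease gene Lgmn had 363 and 265.9 CPM in dark zone cells, against 191.5 and 135.8 CPM in light zone cells and was higher in 8 of 8 plates. Nuclear respiratory chain genes had a median of 0.03 over 21 members. Of 18 genes of the unfolded protein response, 10 were lower and 1 higher in both experiments, at a median of -0.41. Hspa5, the chaperone BiP, had 525 and 1068 CPM in dark zone cells, against 1025 and 1470 CPM in light zone cells, and Calr, calreticulin, had 222.2 and 222.7 CPM, against 340 and 299.1 CPM. Apoptosis regulators had a median of -0.19 over 21 members. Bid, a BH3-only death activator, had 168.7 and 175.3 CPM in dark zone cells, against 359 and 402 CPM in light zone cells. Apex1, the abasic endonuclease, had 176.5 and 107.5 CPM in dark zone cells, against 301.4 and 245.7 CPM in light zone cells. Immediate early genes had a median of 0.00 over 16 members. Of these, Junb, of the AP-1 family, had 159.4 and 166.7 CPM in dark zone cells, against 327.8 and 272.6 CPM in light zone cells, and Egr1 had 22.04 and 25.3 CPM, against 52.2 and 15.5 CPM. The memory-like genes had a fitted median of -0.54 over 16 members, 4 higher and 4 lower in both experiments. Their median was 0.40 in experiment 3 and -0.47 in experiment 4.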

How the data were processed

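Single cells were index-sorted into plates and sequenced by SmartSeq2, per the labels' protocols. The deposited combined table held expected counts per gene and cell, estimated by the authors and not normalized, and the submitters' processing notes list mm10 and, with no stated role, Seurat 3.1.4, STAR 2.6 and RSEM 1.3.1. Genes found only in the deposited tables per plate held 4.65% and 4.25% of reads in experiments 3 and 4. The deposited cell table gave, as annotated by the authors, sort intensity, the ratio of CXCR4 to CD83 intensity, phase scores, the called phase and the percent of mitochondrial reads.

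Counts were summed per experiment, time and zone over at least 10 cells and rounded. Both zones of a harvest (experiment and time) share plates by the labels, so the harvest was the block. Deviations of its zones from group means correlated across genes at r = 0.12 at 12 h, 0.20 at 30 h and 0.083 at 46 h. The quasi-likelihood test of edgeR 4.0.16 (R 4.3.3, filterByExpr, TMM) was fitted to 14 sums of 7 harvests with 1 zone effect per time and 3 residual degrees of freedom, with Benjamini-Hochberg adjustment over 11029 genes. DESeq2 1.42.0 and limma 3.58.1 were alternatives, whose effect and that of the others is given in the closing section. Both count tests were tested on simulated data, where DESeq2 called more unchanged genes than edgeR. Levels are CPM of a sum, and ratios within an experiment or plate used log2(CPM + 1). Coordinates come from GENCODE M21, and promoters from RefSeq.

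Named genes were a fixed set, the 10 largest in each direction by the smaller of both experiments' ratios at a mean of at least 100 CPM and a count in at least 20% of cells of a zone, and up to 4 members of each list with the smallest p. Anxa2, Npm1, Ltb, H2afx and Selenop, and markers given at low levels, were added after their values were seen. One gene of the fixed set is not reported here. The members and gene lists were chosen with earlier results of these data known. P values measure the spread between sums, which may be technical.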

Additional observations from a re-analysis of the deposited data

How the results depend on the processing

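The 0 genes called by edgeR at 12 h, like the 0 for 12 h against later times where that could be fitted, stayed 0 with DESeq2's size factors, with no filter on low counts, with no replicate block or a replicate block by experiment only, from the 12 h sums alone, without either experiment, without the cells marked for both zones, from sums of at least 20 cells, from G1 phase cells alone, with plates as units, from the tables per plate, and by limma on the mean of CPM per cell. Without 1 experiment each zone at 12 h is a single sum, assumed to vary like the other harvests. DESeq2 called 63 genes higher and 53 lower, and 17 higher and 37 lower where 12 h was set against later times. With no replicate block, an alternative chosen after seeing the data, DESeq2 called 29 higher and 26 lower, and 16 higher and 40 lower against later times. A pseudocount of 10 CPM left 1.39% of genes at least 2-fold higher and 1.2% at least 2-fold lower in both experiments. The block changed no call of edgeR.

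Of the named genes, 31 passed in DESeq2 with the block, 3 without it and 0 in the other settings, and 10 values changed sign, all of genes that passed at 12 h in no setting. Without experiment 3 and without experiment 4, in that order, the log2 ratio was -0.57 and 0.052 for Foxo1, 0.69 and -2.65 for Ly75, 0.11 and -2.51 for Il4i1, 0.72 and -1.22 for Egr1, and 1.16 and -0.091 for Mki67. With plates as units Irf4 was at -0.35 and Egr1 at 0.32, and in G1 phase cells Egr1 was at 2.12, Ncapd2 at -2.81 and Ighm at -0.51. The cause was not tested. The lists of dark zone (without Cxcr4), light zone (without Cd83), ribosome biogenesis and growth, glycolysis and mTORC1 genes kept the sign of their median in each alternative, from 0.72 to 1.61, -1.12 to -0.71, -1.33 to -0.67, -0.75 to -0.26 and -0.94 to -0.40. Other medians lay on both sides of 0 over the alternatives. These were of the mitosis, DNA replication, repair, apoptosis, immediate early, memory-like, and positioning and migration lists. The median of the plasma cell genes ran from 0 to 1.92. That of the memory-like genes ran from -2.78 to 0.47. The main limits are 2 experiments, 26 light zone cells in experiment 4, reads without molecular identifiers, and zone labels tied to the sorted proteins.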
